A study of Mus musculus with 6 samples.

Results

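The Schlafen family of the mouse was described here through 7 genes, Slfn1, Slfn2, Slfn3, Slfn4, Slfn5, Slfn8 and Slfn9, which were chosen by gene symbol from a table of 54532 genes. All 7 reached a mean of at least 1 FPKM (fragments scaled to gene model length and library size) and were therefore among the 8882 genes tested. To examine whether loss of progranulin (PGRN, encoded by Grn) altered these transcripts in infected macrophages, 3 WT libraries (replicates 1, 2 and 3) were compared with 3 PGRN KO libraries (replicates 4, 5 and 6). Per the labels, all 6 libraries came from C57BL/6J peritoneal macrophages plated at 2000000 cells per well and challenged for 6 hours with Candida albicans, a fungal pathogen, at 1 fungal cell per macrophage. The titles call the WT libraries controls, but no uninfected library was analysed, so each difference is between genotypes within infected cells. The study's methods describe bone marrow-derived macrophages instead of peritoneal cells for sequencing, and the study's text gives another ratio of fungi to macrophages. Neither discrepancy could be settled. They also state that the KO line, on a C57BL/6 background, and the WT mice were bought from different sources, so genotype and colony of origin cannot be told apart. The labels do not say that the 3 libraries of a genotype came from separate mice, and the p-values then measure only the spread between these libraries.

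Schlafen genes take their name from the German verb for sleeping, because early members slowed the growth of lymphocytes when they were overexpressed. The encoded proteins share an N-terminal Schlafen core, for which binding or cleavage of transfer RNA has been described in several members. Short members consist of little more than this core, intermediate members add a linker region, and long members add a C-terminal helicase-like region. Many mouse Schlafen genes are induced by type I interferon, which signals through a receptor pair, the kinases Jak1 and Tyk2, and a complex with Stat2 and Irf9 that binds interferon-stimulated response elements in promoters. The family is studied in macrophages and T cells for its roles in differentiation, quiescence and restriction of viruses.

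In the gene annotation, the classes could be read from the coding length. Slfn1 (337 codons) and Slfn2 (378 codons) were the short members, each with 2 exons. Slfn4 (602 codons) and Slfn3 (640 codons) were intermediate, and Slfn5 (884 codons), Slfn8 (910 codons) and Slfn9 (910 codons) were long, each with 6 exons. The 7 genes lay in 1 cluster of 264 kb on chromosome 11 of GRCm38 (chr11:82951349-83215154), in the order Slfn5, Slfn9, Slfn8, Slfn2, Slfn1, Slfn4 and Slfn3. Grn lay on the same chromosome, 19.2 Mb from the cluster.

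RefSeq promoters (GRCm38.p6, 250 bases before to 50 bases after the start) were held for all 7 genes, with 2 promoters for Slfn8. The core of the interferon-stimulated response element, searched on both strands as GAAA, any 2 bases and GAAA, was found in the promoters of the 3 long members and in none of the short or intermediate members. The same letters stood in 3.44% of the 32851 promoters, and in 17 of the 32 promoter-matched genes of a list of interferon-stimulated genes used below. The matches are shown here because they separate the long members from the others. Capitals mark the match, which in Slfn8 and Slfn9 reads as the reverse complement, and each sequence is given 5′ to 3′ on the strand of its gene. Distances are from the RefSeq start, which for Slfn5 lies inside the gene as the table annotates it.
Slfn5, plus strand, chr11:82951917-82951986, match 155 bases before the start: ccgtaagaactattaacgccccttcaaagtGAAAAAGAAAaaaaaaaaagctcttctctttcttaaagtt
Slfn9, minus strand, chr11:82991836-82991905, match 45 bases before the start: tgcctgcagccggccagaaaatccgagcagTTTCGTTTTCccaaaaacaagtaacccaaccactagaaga
Slfn8, minus strand, chr11:83020819-83020888, match 48 or 136 bases before the start: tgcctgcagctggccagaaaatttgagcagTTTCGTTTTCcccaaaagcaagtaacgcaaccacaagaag

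The Slfn8 and Slfn9 windows carried the same 10 letters in nearly the same surroundings. A run of 20 bases upstream of it, TCTGGCAGCATGCCTGCAGC, was common to both genes and stood in 3 promoters of the table, namely those of these genes. The promoters of Slfn1, Slfn2, Slfn3 and Slfn4 instead had a run of 9 bases in common, ACTTCCTGG, which stood in 0.843% of all promoters and lay 42 to 74 bases before the start. This run was picked after the sequences were seen, and it is shown in capitals because it sets the 4 shorter members beside each other.
Slfn1, plus strand, chr11:83116716-83116784: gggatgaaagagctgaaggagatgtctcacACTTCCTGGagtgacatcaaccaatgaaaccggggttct
Slfn2, plus strand, chr11:83065027-83065095: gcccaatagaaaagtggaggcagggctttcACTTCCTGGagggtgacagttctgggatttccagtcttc
Slfn4, plus strand, chr11:83175083-83175151: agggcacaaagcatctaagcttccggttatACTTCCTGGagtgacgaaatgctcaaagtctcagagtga
Slfn3, plus strand, chr11:83191258-83191326: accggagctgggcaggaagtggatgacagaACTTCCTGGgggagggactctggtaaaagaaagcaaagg
A gamma-activated site, searched as TTCNNNGAA, was in the promoter of none of the 7 genes against 8.3% of all promoters. An AP-1 site (TGANTCA, 7.81% of promoters) and a TATA box core (TATAAA, 13.6% of promoters) were each found in Slfn4 alone, 34 and 19 bases before its start. A match is a description of letters, and the absence of one says only that these letters were not in this window.

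The libraries held 15996786 to 17551619 fragments, recovered as whole numbers from FPKM and gene length. Grn was measured at 18800, 17294 and 20372 fragments in the WT libraries and at 1, 0 and 1 fragments in the PGRN KO libraries. The macrophage genes Lyz2, Cd68 and Adgre1 were abundant in both genotypes, at mean FPKM values of 5745, 1220 and 186 in WT against 6666, 1185 and 176 in PGRN KO. Of the 7 peritoneal resident markers, Prg4 was detected at 10.4 to 16.2 FPKM, Gata6 at 3.78 to 5.07 FPKM and Icam2 at 2.94 to 5.43 FPKM. Timd4 was at or below 0.204 FPKM in every library, and Selp, Alox15 and Cxcl13 also stayed under 1 FPKM. PGRN KO replicate 6 stood apart from the other PGRN KO libraries in a way that followed gene length, and its estimated quality weight was 0.0899 against 1.07 to 3.79 for the other libraries. Results are therefore given with and without it.

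Between genotypes, 5 of the 7 members were higher in PGRN KO macrophages, namely Slfn1, Slfn4, Slfn5, Slfn8 and Slfn9, with mean FPKM ratios of 1.64 to 2.85. Slfn2, the most abundant member, and Slfn3 did not pass the test. The test was limma on log2(FPKM + 1), with Benjamini-Hochberg adjustment over all genes tested and a threshold of 0.05. Of all genes tested, 10.4% passed in the same direction, and 24.2% passed in either direction. The groups did not overlap for the same 5 members, against 21.2% of tested genes with every PGRN KO library above every WT library. The median log2 fold change was 0.82 over the 7 members and -0.03 over all tested genes. With 3 against 3 libraries, an exact two-sided permutation test of a single gene cannot give a p below 0.1.

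**Figure D1:**
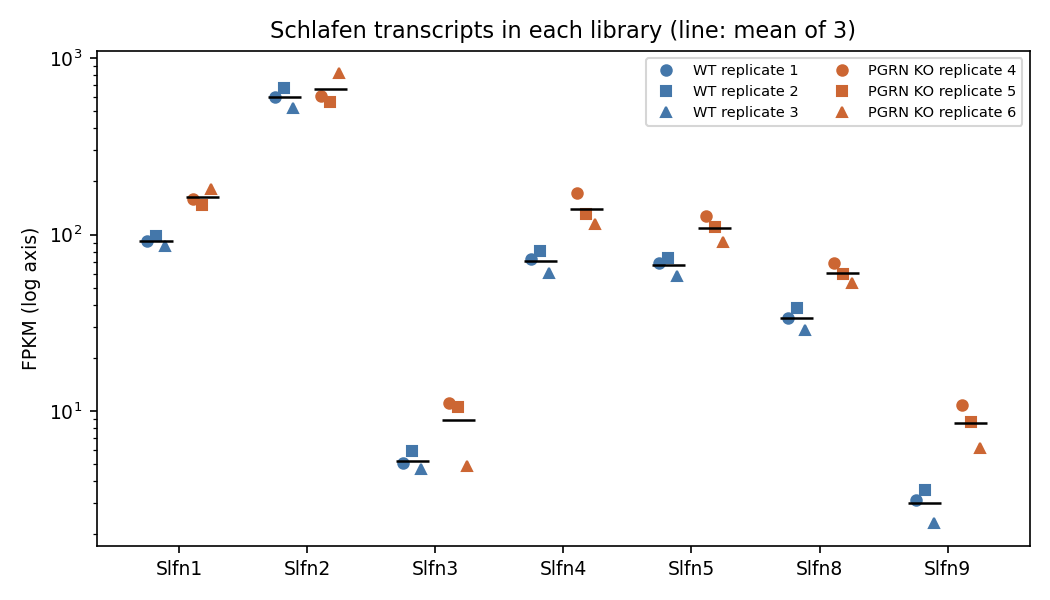
FPKM of the 7 Schlafen genes (log axis) in the 3 WT libraries (blue) and the 3 PGRN KO libraries (orange), with a line at each group mean. Slfn1, Slfn4, Slfn5, Slfn8 and Slfn9 did not overlap between genotypes, and Slfn2 and Slfn3 did.

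Slfn1, a short member that arrests the cell cycle when overexpressed (ENSMUSG00000078763, chr11:83116849-83122670), was measured at 91.4, 98.2 and 85.7 FPKM in the WT libraries and at 160.0, 147.6 and 180.7 FPKM in PGRN KO. The lowest PGRN KO library lay well above the highest WT library. Its mean rose from 91.8 ± 6.25 to 163 ± 16.8 FPKM (SD, n = 3 each), which is 0.82 ± 0.11 (SE) as a log2 fold change (limma adjusted p = 0.00433). Slfn1 had the smallest standard error of the 7 members, and it was the only called member whose highest value came from PGRN KO replicate 6. Without that library the log2 fold change was 0.74 (limma adjusted p = 0.00122).

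Slfn2, a short member whose loss breaks the quiescence of T cells and monocytes (ENSMUSG00000072620, chr11:83065112-83070678), was measured at 602, 678 and 524 FPKM in the WT libraries and at 607, 567 and 820 FPKM in PGRN KO. PGRN KO replicates 4 and 5 lay inside the WT range, and replicate 6 lay above it. The difference was 0.13 ± 0.17 (SE) on the log2 scale, with a 95% interval of -0.27 to 0.54 and a limma adjusted p of 0.600. Without PGRN KO replicate 6 it was -0.03, so its sign depended on that library. The interval does not reach the Slfn1 difference of 0.82, although a smaller difference in either direction lay within it.

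Of the intermediate members, Slfn4, which is expressed in myeloid cells and changes during macrophage activation (ENSMUSG00000000204, chr11:83175186-83190216), was measured at 72.8, 80.2 and 60.7 FPKM in the WT libraries and at 172, 130 and 114 FPKM in PGRN KO. All 3 PGRN KO libraries lay above the WT libraries, and replicate 6 was the lowest of them. Its log2 fold change was 0.94 ± 0.18 (SE; limma adjusted p = 0.0117), and 1.07 without PGRN KO replicate 6 (limma adjusted p = 0.00376). The call was lost by a narrow margin without WT replicate 1 (log2 fold change 0.96, limma adjusted p = 0.0516) or WT replicate 3 (0.83, limma adjusted p = 0.0504).

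Slfn3, studied mostly in T cells and in the differentiation of gut epithelium (ENSMUSG00000018986, chr11:83191330-83215154), was measured at 5.08, 5.91 and 4.70 FPKM in the WT libraries and at 11.2, 10.5 and 4.90 FPKM in PGRN KO. PGRN KO replicates 4 and 5 were well above the WT libraries, while replicate 6 lay among them with 289 fragments. With all 6 libraries the log2 fold change was 0.60 ± 0.27 (SE) and did not pass (limma adjusted p = 0.150). Without replicate 6 it was 0.93, with a limma adjusted p of 0.00126, and 6 of 7 members then passed against 41.3% of tested genes in either direction. The Slfn3 call therefore rested on whether this single library entered the fit.

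The long member Slfn5, a nuclear protein that interferon induces (ENSMUSG00000054404, chr11:82951349-82964840), was measured at 68.5, 73.5 and 58.3 FPKM in the WT libraries and at 127, 110 and 91.1 FPKM in PGRN KO. The groups did not overlap, and the log2 fold change was 0.70 ± 0.15 (SE; limma adjusted p = 0.0180). Without PGRN KO replicate 6 it was 0.82 (limma adjusted p = 0.00309). The call was lost without WT replicate 1 (limma adjusted p = 0.0697) or WT replicate 3 (limma adjusted p = 0.0702), and when all 22912 genes above 0 were tested (limma adjusted p = 0.0534, with 5.96% of genes past the threshold).

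Slfn8, a long member of the same subgroup as Slfn9 (ENSMUSG00000035208, chr11:83002158-83020810), was measured at 33.5, 38.2 and 28.7 FPKM in the WT libraries and at 68.9, 59.7 and 53.3 FPKM in PGRN KO. Every PGRN KO value was above every WT value. The mean rose from 33.5 ± 4.79 to 60.7 ± 7.86 FPKM (SD, n = 3 each), or by 0.84 ± 0.14 (SE) in log2 terms (limma adjusted p = 0.00829). Without PGRN KO replicate 6 the log2 fold change was 0.93 (limma adjusted p = 0.00311).

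Slfn9 (ENSMUSG00000069793, chr11:82978390-82991830) was the least abundant member in WT, at 3.12, 3.58 and 2.31 FPKM, and was measured at 10.9, 8.66 and 6.14 FPKM in PGRN KO. Its groups did not overlap, and the ratio of the means, 2.85, was the largest of the 7 members. The log2 fold change was 1.24 ± 0.21 (SE; limma adjusted p = 0.00818), and 1.43 without PGRN KO replicate 6 (limma adjusted p = 0.00166). These values rested on 249 to 1121 fragments per library, against 15725 to 23590 fragments for Slfn2.

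**Figure D2:**
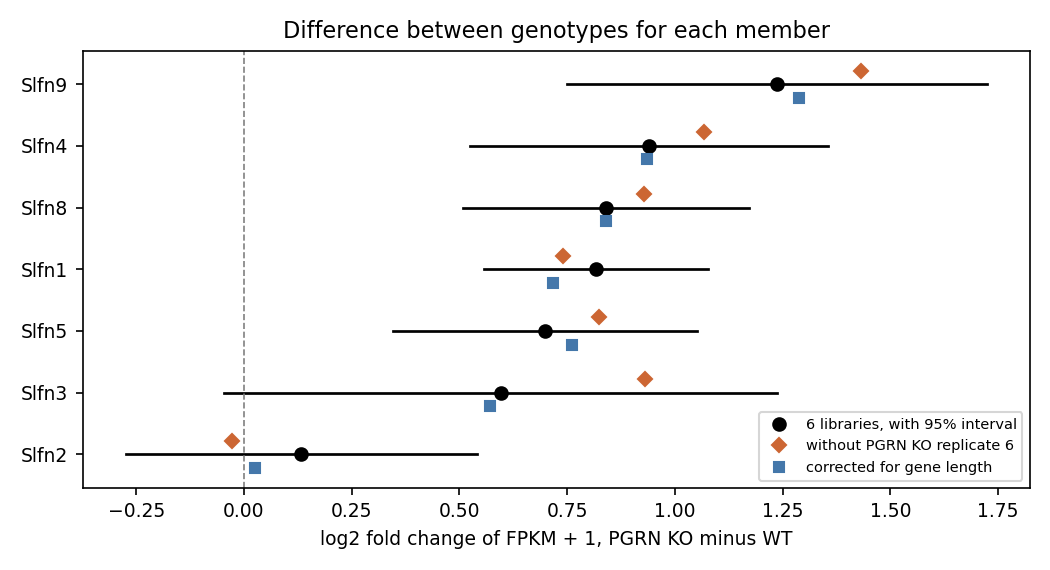
Log2 fold change of FPKM + 1 (x axis, PGRN KO minus WT) for the 7 Schlafen genes (y axis) from all 6 libraries (black, with the 95% interval), without PGRN KO replicate 6 (orange) and after a correction for gene length (blue). Slfn9 was highest at 1.24, and the intervals of Slfn2 and Slfn3 crossed 0.

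Slfn1, Slfn8 and Slfn9 passed in 18 of 18 alternative settings, Slfn4 in 16 and Slfn5 in 15, whereas Slfn3 passed in 3. Those 3 left out or down-weighted PGRN KO replicate 6, namely the fit without it, the same fit with length correction and quality weights, in which 41.3%, 41.9% and 47.6% of tested genes passed. For Slfn2, the adjusted p ranged from 0.0528 to 0.924 over the same 18 limma fits. Leaving out WT replicate 1 or WT replicate 3 left 3 members past the threshold, against 8.03% and 9.94% of tested genes, respectively. The 5 members named above as higher in PGRN KO had log2 fold changes above 0 in each of the 18 settings, other scalings included. So did Slfn3 (0.41 to 0.93), whereas Slfn2 changed sign (-0.042 to 0.24).

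The members differed in how PGRN KO replicate 6 compared with replicates 4 and 5. On the log2 scale it was 0.48 higher than their mean for Slfn2 and 0.23 higher for Slfn1. For the other members the difference was -0.26 for Slfn8, -0.38 for Slfn5, -0.39 for Slfn4, -0.58 for Slfn9 and -1.003 for Slfn3. Only 1.77% of tested genes were as low in this library as Slfn3. The short members have gene models of 1664 and 1864 bases, the intermediate members of 3411 and 3964 bases and the long members of 4091 to 6326 bases. After correction for length, the difference was nearer 0 for Slfn1 (-0.013), Slfn2 (0.22), Slfn5 (-0.18) and Slfn9 (-0.42). It hardly moved for Slfn8 (-0.25), Slfn4 (-0.39) and Slfn3 (-1.07). The correction left the same 5 members past the threshold, with 31.3% of tested genes past it in either direction.

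**Figure D3:**
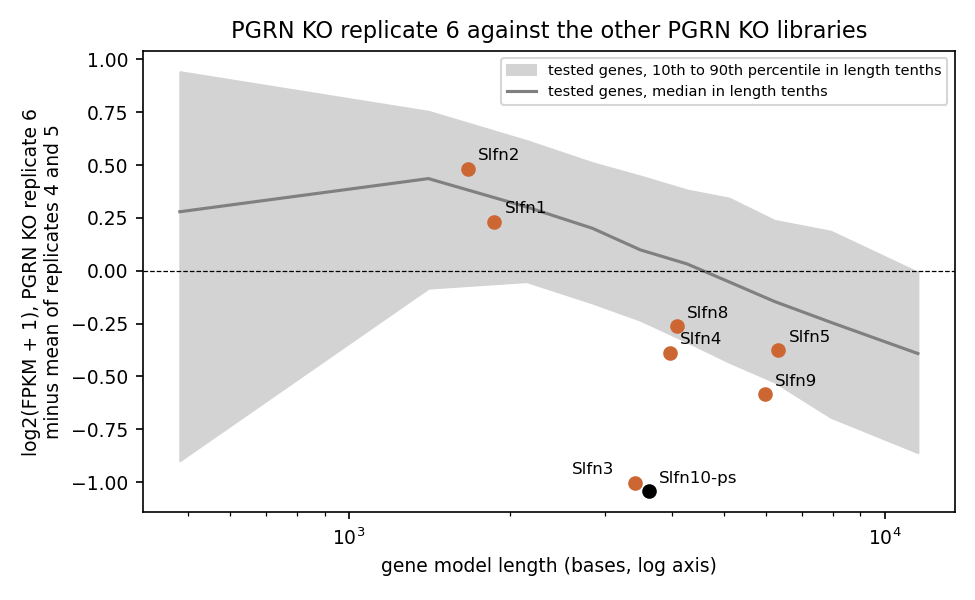
Log2(FPKM + 1) in PGRN KO replicate 6 minus the mean of replicates 4 and 5 (y axis) against gene model length in bases (x axis, log scale) for the 7 members (orange) and the pseudogene Slfn10-ps (black); the grey band and line give the 10th to 90th percentile and the median of tested genes grouped by length into 10 bins. Slfn3 and Slfn10-ps lay farthest below the band, near -1.0, Slfn4 and Slfn9 lay just below it, and Slfn1 and Slfn2 lay above 0.

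Among the WT libraries, all 7 members were highest in replicate 2 and lowest in replicate 3, an order seen in 26.4% of tested genes. Among the PGRN KO libraries, Slfn3, Slfn4, Slfn5, Slfn8 and Slfn9 were highest in replicate 4 and lowest in replicate 6, as were 20.7% of tested genes. Over the 6 libraries, the 6 pairs formed by Slfn4, Slfn5, Slfn8 and Slfn9 had Pearson correlations of 0.990 to 0.998 on the log2 scale. The 6 pairs with Slfn2 had correlations of -0.26 to 0.54. These correlations include the difference between genotypes and share the libraries' depth and scaling.

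FPKM is per length, so levels were set beside each other between members. Such a comparison depends on the gene model lengths and on how reads shared by several genes were assigned. In WT the order of mean FPKM was Slfn2, Slfn1, Slfn4, Slfn5, Slfn8, Slfn3 and Slfn9, and of neighbours in this order the ranges of Slfn4 and Slfn5 overlapped. In PGRN KO the order was the same, but the ranges overlapped for Slfn1 with Slfn4, Slfn4 with Slfn5, and Slfn3 with Slfn9. The summed FPKM of the 7 genes was 873 ± 107 for WT against 1154 ± 118 for PGRN KO (SD, n = 3 each), a ratio of 1.32. Without Slfn2 the sum was 272 ± 29.7 in WT and 489 ± 53.5 in PGRN KO, a ratio of 1.80. Neither sum overlapped between genotypes, and each gave p = 0.1 in the exact permutation test, the smallest p it allows.

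The composition of the family, which scaling between libraries cannot move but differences that follow gene length can, also differed. Slfn2 made up 68.7%, 69.4% and 68.5% of the summed FPKM in WT and 52.4%, 54.8% and 64.6% in PGRN KO. The 3 PGRN KO shares were all below the WT shares, with replicate 6 nearest to them (exact permutation p = 0.1). The difference in the mean Slfn2 share, PGRN KO minus WT, was -11.6 percentage points, and -15.2 without PGRN KO replicate 6. The share of Slfn1 was 10.6% ± 0.600 for WT against 14.1% ± 0.242 for PGRN KO, and that of Slfn4 was 8.15% ± 0.189 against 12.1% ± 2.97 (SD, n = 3 each). Counted by fragments, not per length, the difference for Slfn1 was 1.80 percentage points in place of 3.55. The shares of Slfn8 and Slfn9 were also higher in every PGRN KO library, at means of 5.31% and 0.753% against 3.83% and 0.342% in WT, and by fragments the Slfn9 difference was 0.841 points in place of 0.412. The shares of Slfn3 and Slfn5 overlapped between genotypes, since PGRN KO replicate 6 fell below the WT libraries for both.

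**Figure D4:**
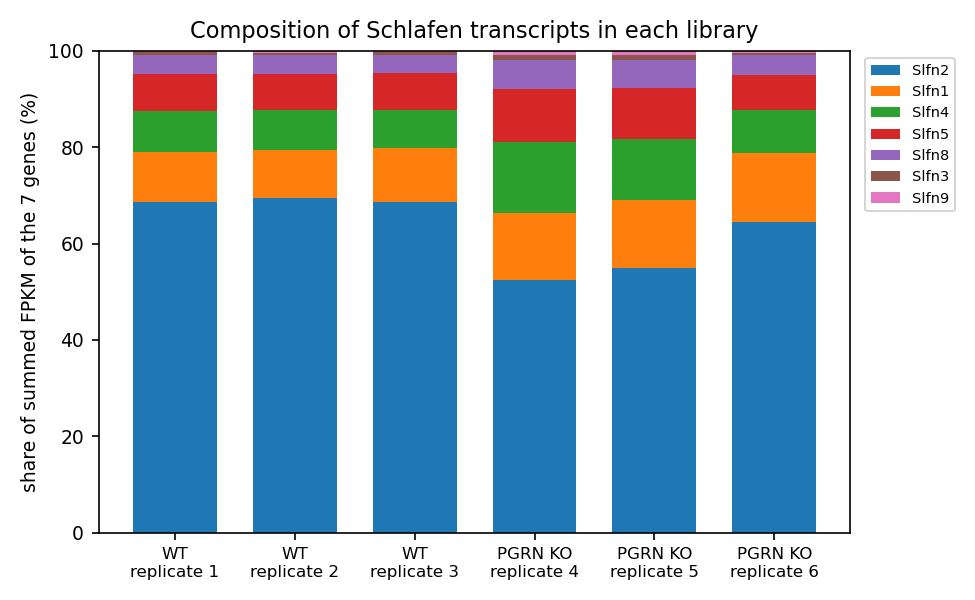
Share of the summed FPKM of the 7 Schlafen genes (y axis, %) held by each gene in each of the 6 libraries (x axis). Slfn2 held 68.5% to 69.4% in WT and 52.4% to 64.6% in PGRN KO, with replicate 6 nearest to WT.

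Some members are near copies of each other in places, chiefly Slfn8 with Slfn9 and Slfn3 with Slfn4, and counting can split or drop reads that fit several copies. Of the words of 31 bases in the Slfn9 transcripts, 24.6% also occurred in another gene, and 13.3% occurred in Slfn8, while 19.1% of Slfn8 words occurred in Slfn9. The pseudogene Slfn10-ps held 18.7% of Slfn8 words and 14.3% of Slfn9 words. Slfn9 FPKM amounted to 9.29%, 9.37% and 8.07% of Slfn8 FPKM in WT and to 15.7%, 14.5% and 11.5% in PGRN KO. These ratios did not overlap between genotypes (exact permutation p = 0.1, the smallest possible), and they rest on the same uncertain assignment of shared reads. Slfn3 had 15.1% of its words in Slfn4, Slfn4 had 12.9% in Slfn3 and 20.9% in any other gene, and the ratio of Slfn3 to Slfn4 FPKM overlapped between genotypes, at 6.98% to 7.73% in WT and 4.30% to 8.08% in PGRN KO. Slfn1 had 1.96% of its words in any other gene, the lowest value of the 7 members. The shares of words in any other gene were 30.9% for Slfn3, 27.3% for Slfn8, 13.4% for Slfn5 and 10.8% for Slfn2. These shares were not confined to members. Words were matched on both strands, and 7.99% of Slfn5 words occurred in its antisense gene Slfn5os. Gm11427 held 10.8% of Slfn3 words and 8.72% of Slfn4 words. Levels of Slfn2, Slfn3, Slfn4, Slfn5, Slfn8 and Slfn9 are uncertain to the extent that reads from these words were assigned.

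Other genes with Schlafen names are no members and are given for completeness. Slfn10-ps, a pseudogene within the cluster, was measured at 5.73, 6.78 and 5.66 FPKM in the WT libraries and at 8.47, 8.10 and 3.50 FPKM in PGRN KO. Its groups overlapped (log2 fold change 0.05, limma adjusted p = 0.908), and without PGRN KO replicate 6 the log2 fold change was 0.40 (limma adjusted p = 0.0138). Slfn5os, antisense to Slfn5, did not exceed 0.262 FPKM, and the antisense gene Gm20234 overlapping Slfn2 did not exceed 3.90 FPKM. The strand setting of the counting is not stated in the labels or methods used, so reads of antisense partners could not be told apart with certainty. Slfn14, next to the cluster, had 2 fragments in PGRN KO replicate 6 and 0 in the other libraries, and Slfnl1 on chromosome 4 was listed at 0 throughout.

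The cluster was then compared with its surroundings. Of the nearby tested coding genes Zfp830, Lig3 and Rffl before and Ap2b1 and 1700020L24Rik after the cluster, 0 of 5 passed in limma. With voom 0 passed as well, where 24.2% of all tested genes passed in either fit. In limma, 2 of the 5 had an unadjusted p under 0.05, as did 3469 of the 8882 tested genes. Log2 fold changes of the 5 neighbours lay between -0.28 (Zfp830) and 0.19 (1700020L24Rik), within which Slfn2 alone of the members also fell. Without PGRN KO replicate 6, 1 of the 5 passed, Zfp830 at -0.33 (limma adjusted p = 0.0214), where 41.3% of all tested genes passed. With 5 genes, these counts do not set the neighbours apart from tested genes in general. The called Schlafen genes stood on both sides of Slfn2 and Slfn10-ps.

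**Figure D5:**
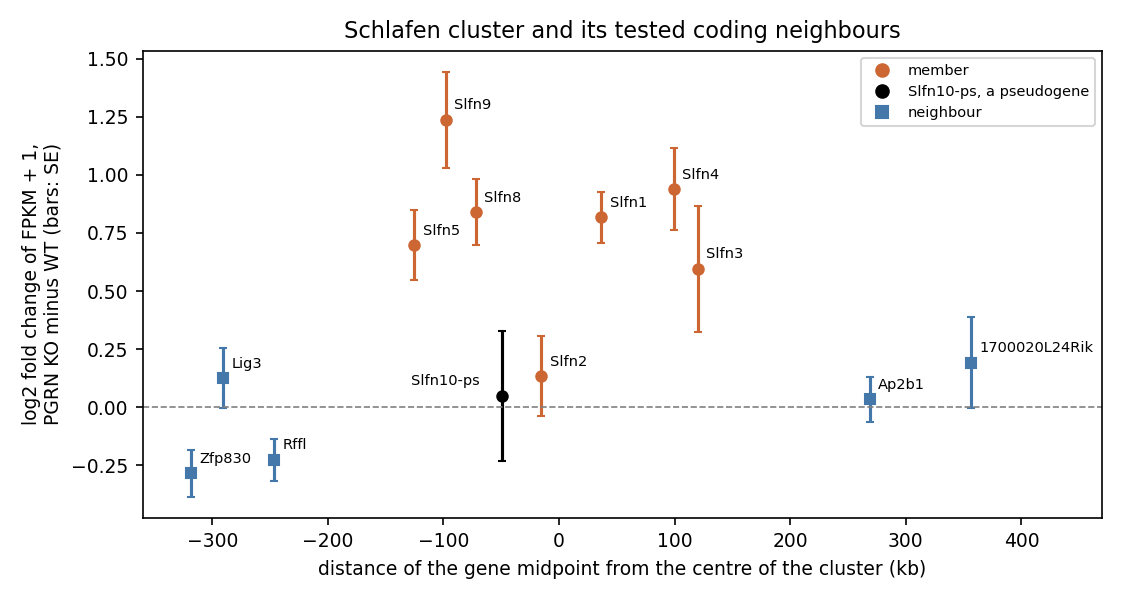
Log2 fold change of FPKM + 1 (y axis, PGRN KO minus WT, bars give the SE) against the distance of the gene midpoint from the cluster centre in kb (x axis) for the 7 members (orange), Slfn10-ps (black) and 5 nearby tested coding genes (blue squares). The neighbours lay between -0.28 and 0.19, and 6 of the 7 members lay above them.

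To place the family among interferon-responsive genes, lists chosen with earlier results of these data known were described by counts. Of 44 interferon-stimulated genes outside the family, 28 rose in PGRN KO, against 10.4% of all tested genes, and the other 16 did not pass. The median log2 fold change over all 44 genes was 0.69. Leaving out PGRN KO replicate 6 gave 34 genes past the threshold, with 41.3% of all tested genes past it in either direction, whereas leaving out WT replicate 1 gave 16, with 8.03% of all tested genes. The largest differences were in Mx1, a GTPase that restricts viruses (17.5 to 68.7 FPKM, log2 fold change 1.91), and Cmpk2, a mitochondrial nucleotide kinase (55.0 to 178 FPKM, 1.67). Ifi44 (1.87 to 7.97 FPKM, 1.63) and Ifit3, a relative of the antiviral RNA binder Ifit1 (76.1 to 241 FPKM, 1.62), followed. The limma adjusted p of these 4 genes was at most 0.00452. All 4 exceeded the Slfn9 difference of 1.24.

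Of 20 tested genes of interferon signalling, 5 rose, 2 fell and 13 did not pass, where 24.2% of all tested genes passed in either direction. Among those that rose, Usp18, a brake on receptor signalling, had a log2 fold change of 0.88, Irf5, a factor that drives cytokine genes, of 0.79, and the receptor kinase Tyk2 of 0.62. Stat2, part of the complex that binds the response element, rose by 0.54 on the same scale. Irf9, named here as its partner in that complex, did not pass (log2 fold change -0.04, limma adjusted p = 0.745). Jak1 and Irf8, a kinase of the same receptors and a factor of macrophage identity, fell by 0.62 and 0.57, and are named because only 2 genes fell. Among ligands and receptors, which were named after their values were seen, Ifnb1 had a mean of 5.41 ± 1.67 FPKM in WT against 7.25 ± 1.77 FPKM in PGRN KO (SD, n = 3 each; limma adjusted p = 0.274). Ifnar1 (limma adjusted p = 0.183) and Ifnar2 (limma adjusted p = 0.131) did not pass either. Of 12 tested genes of RNA cleavage and restriction, the activity described for Schlafen proteins, 3 rose and 1 fell, a number too small to set apart from the same 24.2%. Those that rose were the exonuclease Isg20 (log2 fold change 1.27), Ifit1 (0.97) and the helicase Znfx1 (0.96), and the ribonuclease Zc3h12a fell by 0.39 (limma adjusted p = 0.0345). Isg20 and Ifit1 also stood in the list of interferon-stimulated genes, as did Stat2, Irf9 and Usp18.

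The genes most like each called member over the 6 libraries were taken by Pearson correlation of log2(FPKM + 1), with r of 0.995 or more for each of them. Slfn1 was nearest to Cited2, a transcriptional coregulator (r = 0.999), followed by Apool and Chil3. Slfn4 was nearest to Slc15a2, a peptide transporter, followed by Azi2 and Pml. Slfn5 was nearest to Irgm2, an interferon-inducible GTPase (r = 0.999), followed by Clmp and Stat2. Slfn8 was nearest to Parp12 (r = 0.9995), Enpp4 and Phf11c, and Slfn9 to Stat2, Vwa5a and Pml. Likeness over 6 libraries that differ by genotype was common, since 141 to 452 genes per member had an r above 0.95. It did not require a passed test, as Clmp differed by only 0.14 on the log2 scale (limma adjusted p = 0.221).

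Markers of other cell types also differed between the libraries. In bulk RNA, fewer cells of a type and less RNA per cell cannot be told apart. The 7 B cell markers summed to 9.28 to 10.7 FPKM in WT against 26.1 to 30.9 FPKM in PGRN KO, and 4 of 4 tested rose, led by Ighm (3.48 to 13.4 FPKM), while Ms4a1 had a mean of at most 0.345 FPKM. The 6 mast cell markers summed to 2.29 to 3.19 FPKM in WT against 9.72 to 13.99 FPKM in PGRN KO, with Cma1 and Tpsb2 higher. The 10 neutrophil markers summed to 48.8 to 53.2 FPKM in WT against 21.5 to 26.6 FPKM in PGRN KO, nearly all of it S100a8, and the defining markers Ly6g, Elane and Cxcr2 were at 0 in every library. The 10 T and NK cell markers summed to 42.6 to 45.0 and 39.9 to 41.0 FPKM, of which Il7r made up a mean of 39.1 and 33.3 FPKM, and the 3 tested did not pass (limma adjusted p of 0.112 to 0.534). The T cell markers Cd3d, Cd4 and Cd8a were too low to be tested, but each was higher in every PGRN KO library. Their means were 0.436, 0.197 and 0.251 FPKM in WT against 0.933, 0.483 and 0.484 FPKM in PGRN KO. Cd3e and Lck were also higher in every PGRN KO library. This pattern was seen in 21.2% of tested genes, a share that covers Lck but not the untested Cd3d, Cd3e, Cd4 and Cd8a. In contrast, Cd3g, Trac, Nkg7 and Ncr1 overlapped between genotypes, and Il7r was lower in every PGRN KO library. Of 6 monocyte-derived macrophage markers, Chil3 rose (1328 to 2343 FPKM), Ly6c2 fell (12.0 to 3.39 FPKM), Fn1 and F13a1 fell as well, and the defining receptor Ccr2 stayed under 1 FPKM. The 6 dendritic cell markers summed to 27.3 to 34.6 FPKM in WT and 15.8 to 19.3 FPKM in PGRN KO, nearly all of it Ccr7. Only Ccr7 was tested, and it fell (28.9 to 16.6 FPKM). Among the untested, Flt3 and Xcr1 had lower means in PGRN KO, Zbtb46 had a higher mean, and Siglech and Cd209a were at or near 0. The 7 mesothelial and fibroblast markers, none of them tested, summed to 1.07 to 1.18 FPKM in WT against 1.92 to 3.45 FPKM in PGRN KO. The fibroblast genes had higher means in PGRN KO, led by Dcn (0.490 to 1.35 FPKM). Means of the mesothelial genes Msln (0.103 to 0.0705 FPKM), Krt19 (0.156 to 0.121 FPKM) and Upk3b (0.0169 to 0.00546 FPKM) were instead lower. Of the 8 macrophage markers Mertk rose (1.41 to 3.24 FPKM) and Csf1r fell (32.5 to 24.7 FPKM), and of the 7 resident peritoneal markers 3 were tested and Icam2 rose (3.10 to 5.10 FPKM). The part of these cell types in the Schlafen differences was not tested.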

How the data were processed

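The deposited table held 1 FPKM value per gene and library; per the labels, the authors' reads came from NEBNext Ultra RNA libraries. The submitters' processing notes name CASAVA, HISAT2 2.0.5, featureCounts 1.5.0-p3, DESeq2 1.20.0 and mm10/GRCm38, whereas the study's methods name other versions and another counter. Values multiplied by gene length gave whole fragments in 100% of cases (within 0.001 of a fragment), with libraries scaled by median-ratio factors. Counting of ambiguous reads and of strand: not given in the sources used here.

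Genes with a mean of at least 1 FPKM (8882) were tested as log2(FPKM + 1) in limma 3.58.1 (R 4.3.3), with a mean-variance trend, two-sided, and Benjamini-Hochberg adjustment; the pseudocount of 1 understates changes of low genes. The script was tested on simulated data. The members and lists were chosen with earlier results of these data known. Named were the members, other Slfn genes, Grn, the 3 genes most alike to each called member (without members, Gm and Rik names), the 3 nearest tested coding genes on each side (5 of these 6 are reported), the 4 called genes of each pathway list with the largest absolute log2 fold change, and markers; exceptions are stated, and some items that this rule names are not reported here. Alternatives changed the pseudocount, filter, scaling, variance model, length correction and libraries; voom on recovered fragments called 2153 genes. Sequences and motif windows were RefSeq promoters (GRCm38.p6), and coding lengths came from GENCODE vM21. Overlap of cell type lists with macrophage expression was not analysed.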

Additional observations from a re-analysis of the deposited data

How the results depend on the processing

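No paired analysis was possible because replicates are numbered 1 to 3 in WT and 4 to 6 in PGRN KO. The count of genes past the threshold, 2151 (921 higher and 1230 lower in PGRN KO), was 1366 (603 and 763) without a filter, where more genes were tested, 4225 (1757 and 2468) with quality weights, and 3719 (1488 and 2231) with length correction without PGRN KO replicate 6. It included 529 higher at a mean FPKM of at least 5, 608 lower on the TPM scale and 695 lower with the sum of fragments as library size; on these scales 922 and 1179 were higher. Leaving out 1 library gave 713 to 3668 genes (331 to 1438 higher, 382 to 2230 lower). In those fits 3 to 6 Schlafen members passed and 16 to 34 interferon-stimulated genes. Slfn1, Slfn8 and Slfn9 stayed past the threshold in 18 of 18 settings, with log2 fold changes of 0.72 to 0.92, 0.74 to 0.94 and 1.07 to 1.54. Without a filter Slfn5 kept its log2 fold change of 0.70 but not its call. Over the left-out libraries, Slfn4 ranged from 0.77 to 1.07, Slfn5 from 0.58 to 0.82 and Slfn3 from 0.41 to 0.93; Slfn3 also passed with quality weights (0.92) and with length correction without PGRN KO replicate 6 (0.93). Slfn2 changed sign with quality weights (-0.013) and with length correction without PGRN KO replicate 6 (-0.042), and ranged from -0.028 (without that replicate) to 0.24 over the left-out libraries. Slfn10-ps changed sign without PGRN KO replicate 4 (-0.14) or 5 (-0.11) and reached 0.40 without replicate 6. By fragments, not per length, the share of the family rose by 1.80 percentage points for Slfn1 and 0.84 for Slfn9, against 3.55 and 0.412 by FPKM, since fragments weight genes by length. Beyond these constructions the cause was not tested. Depth was lowest among the members for Slfn9 and Slfn3, with as few as 249 and 289 fragments in a library. Slfn14 had at most 2 fragments and could not be compared.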
